A study of Mus musculus with 16 samples.

Results

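The CYP4 enzymes are cytochrome P450s of the endoplasmic reticulum that hydroxylate fatty acids at the terminal, or omega, carbon. The genes described here are 10 members of this family, chosen by symbol: Cyp4a10, Cyp4a14, Cyp4a31, Cyp4a32, Cyp4a12a and Cyp4a12b of subfamily CYP4A, Cyp4f13, Cyp4f14 and Cyp4f15 of CYP4F, and Cyp4v3 of CYP4V. They are 10 of the 25803 genes in the joined count tables. All 10 were found, and 10 of 10 passed the filter on low counts that left 14488 genes for testing.

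Bulk RNA sequencing was done on livers of male mice on a high-fat diet (HFD) for 12 weeks. Control mice, called WT in the series text, were compared with mice labelled CPT1a LKO, in which Cpt1a is ablated in the liver. Cpt1a encodes the carnitine palmitoyltransferase that admits long-chain fatty acids to mitochondria. Each genotype was taken after a 16 h fast or after a 16 h fast and 6 h of refeeding, giving 4 groups of 4 libraries: fasted control (S40 to S43), fasted LKO (S44 to S47), refed control (S48 to S51) and refed LKO (S52 to S55). All 4 groups share the diet, the sex and the fast. The driver of the deletion, the alleles of the controls, the strain and the age are not given in the sources used here. The labels do not say that each library is a separate animal, so the p-values measure the spread between these libraries, part of which may be technical.

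Omega-hydroxylation opens a side route of fatty acid breakdown. The omega-hydroxy acid is oxidised by alcohol and aldehyde dehydrogenases to a dicarboxylic acid, which is then shortened in peroxisomes. In mouse liver, Cyp4a10 and Cyp4a14 are classical target genes of PPARA, the nuclear receptor that senses fatty acids. CYP4F enzymes also hydroxylate leukotrienes and other eicosanoids, and the mouse Cyp4a12 enzymes make an omega-hydroxylated form of arachidonic acid.

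Library totals ran from 14721601 to 24618230 counts. Levels below are CPM, counts scaled to a common library total after TMM normalisation. Cpt1a, the targeted gene, stood at 466.5, 555.7, 547.3 and 377.5 CPM in fasted controls and at 94.8, 86.1, 126 and 95.6 CPM in fasted LKO. It stood at 371, 319, 517 and 620 CPM in refed controls and at 39.9, 75.2, 59.9 and 41.9 CPM in refed LKO, so every library matched its genotype label. Summed hepatocyte markers, 8 genes that include Alb and Apob, ran from 80461 to 90090 CPM in fasted controls against 67281 to 77717 in fasted LKO, and from 79719 to 96106 in refed controls against 71051 to 82581 in refed LKO. Of these 8 markers, 2 (Ttr and Serpina1c) were called lower in fasted LKO and 0 in refed LKO. The kidney, another site of CYP4A expression, left almost no trace, with a summed marker level of at most 0.136 CPM in any library and Nphs1, Kap and Slc12a1 at 0 or not listed in every group. The part of the hepatocyte markers in the results below was not tested. In bulk tissue, fewer cells of a type and less RNA per cell cannot be told apart.

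The members differ widely in how alike they are, and this bears on how their reads can be assigned. The coding sequences (GENCODE M21, GRCm38) of Cyp4a10 and Cyp4a32 were 97.2% identical with 43 substitutions, those of Cyp4a10 and Cyp4a31 were 96.6% identical, and those of Cyp4a12a and Cyp4a12b were 98.5% identical with 23 substitutions. Cyp4a14 was 76.8% identical to Cyp4a10, Cyp4f14 was 82.2% identical to Cyp4f15, and Cyp4v3 was 58.4% identical to Cyp4a10. The sequences below are shown because they cover the heart of the enzyme, the haem-binding signature, and make these distances visible. Each is a 60-base stretch of coding sequence around the codons of the signature F-x-x-G-x-R-x-C-x-G, and capitals mark bases that differ from Cyp4a10. It lies at coding positions 1330 to 1389 of Cyp4a10, across exons 11 and 12.
Cyp4a10: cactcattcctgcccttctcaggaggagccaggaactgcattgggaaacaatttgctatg
Cyp4a32: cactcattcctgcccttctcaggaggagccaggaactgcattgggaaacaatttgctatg
Cyp4a14: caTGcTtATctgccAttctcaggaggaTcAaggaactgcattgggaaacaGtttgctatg
Cyp4a12a: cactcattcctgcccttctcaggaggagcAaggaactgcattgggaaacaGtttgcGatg
Cyp4f14: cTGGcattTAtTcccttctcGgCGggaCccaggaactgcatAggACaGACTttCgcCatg
Cyp4f15: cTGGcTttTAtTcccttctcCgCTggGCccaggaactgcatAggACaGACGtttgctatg
Cyp4v3: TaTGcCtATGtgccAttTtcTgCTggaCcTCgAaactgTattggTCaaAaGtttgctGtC
Cyp4a31 and Cyp4a32 matched Cyp4a10 at every base of this stretch, and Cyp4a12a and Cyp4a12b were identical to each other. Cyp4a14 differed from Cyp4a10 at 9 bases, Cyp4a12a at 3, Cyp4f14 at 19, Cyp4f15 at 19 and Cyp4v3 at 23. Over whole coding sequences, 17.9% of the 100-base stretches of Cyp4a10 were found unchanged in another member, against 13.8% for Cyp4a31, 20.1% for Cyp4a32 and 41.5% for each of Cyp4a12a and Cyp4a12b. The share was 0 for Cyp4a14, the 3 CYP4F genes and Cyp4v3. The levels of Cyp4a10, Cyp4a31, Cyp4a32, Cyp4a12a and Cyp4a12b are therefore uncertain where reads fall in shared stretches, since how the counting treated such reads is not given in the sources used here.

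In the deposited coordinates (mm39, per the submitters' processing notes), the 6 CYP4A genes lie together on chromosome 4. Cyp4a12a is at chr4:115156243-115190012, Cyp4a12b at chr4:115268821-115296231, Cyp4a14 at chr4:115343397-115353339, Cyp4a10 at chr4:115375461-115390846, Cyp4a31 at chr4:115420846-115436212 and Cyp4a32 at chr4:115458166-115478799. Cyp4a14 is on the minus strand and the other 5 are on the plus strand. The CYP4F genes are on chromosome 17, Cyp4f15 at chr17:32904601-32922326 (plus), Cyp4f14 at chr17:33124044-33136316 (minus) and Cyp4f13 at chr17:33143662-33166376 (minus). Cyp4v3 is at chr8:45757981-45786253 (minus). All 10 are protein-coding genes.

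RefSeq promoter windows (GRCm38.p6) were matched for 5 of the 10 members, Cyp4a32, Cyp4f13, Cyp4f14, Cyp4f15 and Cyp4v3, in 8 windows. The 250 bases upstream of the start are shown for Cyp4a32 and for 1 of the 4 starts of Cyp4f14, which moved in opposite directions between genotypes. The Cyp4a32 window is chr4:115600688-115600937 (plus) and the Cyp4f14 window is chr17:32917357-32917606 (minus), and neither has capitals because neither held a match.
Cyp4a32: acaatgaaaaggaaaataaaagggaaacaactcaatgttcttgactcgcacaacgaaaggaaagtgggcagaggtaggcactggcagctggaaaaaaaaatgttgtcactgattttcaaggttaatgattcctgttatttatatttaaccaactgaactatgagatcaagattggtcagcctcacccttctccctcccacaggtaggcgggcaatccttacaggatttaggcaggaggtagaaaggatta
Cyp4f14: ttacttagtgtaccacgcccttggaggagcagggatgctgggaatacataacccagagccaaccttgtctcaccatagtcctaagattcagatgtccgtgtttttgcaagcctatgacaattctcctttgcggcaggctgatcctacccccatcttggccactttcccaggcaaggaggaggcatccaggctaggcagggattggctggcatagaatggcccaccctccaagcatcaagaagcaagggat
Windows were searched on both strands, with 50 further bases after the start. The DR1 element bound by PPARA (AGGTCANAGGTCA, at most 2 mismatches) was found in 0 of the 8 windows and in 3.86% of the 32851 windows of the table. The single repeat unit AGGTCA, which forms part of the DR1, was found in 0 of the 8 and in 16.3% of all windows. The STAT5 element TTCNNNGAA was found in 1, the Cyp4f13 window, 22 bases before the start (offset -22), and in 8.3% of all windows. These are letter matches in short windows only. The 4 windows of Cyp4f14 partly overlap, so the 8 windows are not separate promoters. Cyp4a10, Cyp4a14, Cyp4a31, Cyp4a12a and Cyp4a12b had no window, so the search says nothing about them.

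Per kilobase of gene length, the scale on which different genes can be compared, Cyp4a10 and Cyp4a14 stood far above the other members in every group. In fasted controls Cyp4a10 was at 578 ± 184 and Cyp4a14 at 538 ± 184 CPM per kb (SD, n = 4), and their ranges overlapped. Next came Cyp4f15 at 99.2 ± 12.1, Cyp4v3 at 82.2 ± 8.98, Cyp4f14 at 58.3 ± 8.55 and Cyp4a12a at 48.8 ± 24.8 CPM per kb. Cyp4f15 overlapped Cyp4v3, Cyp4v3 did not overlap Cyp4f14, and Cyp4f14 overlapped Cyp4a12a. Cyp4a32 at 32.9 ± 6.57, Cyp4f13 at 19.8 ± 2.0, Cyp4a12b at 15.4 ± 10.6 and Cyp4a31 at 6.83 ± 2.22 CPM per kb closed the order. Of these last neighbours, Cyp4a32 overlapped Cyp4a12a but not Cyp4f13, and Cyp4a12b overlapped both Cyp4f13 and Cyp4a31. The order below Cyp4a10 and Cyp4a14 depends on the deposited lengths. Cyp4a32 has 1536 bases there, close to its coding length of 1530, and Cyp4f13 has 4441. Without division by length, Cyp4v3 (276.5 to 358.6 CPM) stood above Cyp4f15 (191.7 to 249.7 CPM) in fasted controls. Cyp4f13 (77.7 to 98.7 CPM) then stood above Cyp4a32 (38.4 to 61.5 CPM), both pairs without overlap.

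The order was not the same in the knockout. In fasted LKO, Cyp4a14 was at 1916 ± 715 and Cyp4a10 at 1380 ± 303 CPM per kb, still overlapping. Cyp4f14 stood ninth at 24.0 ± 5.13 CPM per kb, level with Cyp4a31 at 24.5 ± 14, and Cyp4f13 was lowest at 17.0 ± 2.22. Among all 14488 genes tested, ranked by group mean per kb, Cyp4a14 went from rank 109 in fasted controls to rank 33 in fasted LKO, and from rank 86 in refed controls to rank 37 in refed LKO. The rank of Cyp4f14 was 880 in fasted controls and 1704 in fasted LKO. Per kb, the ratio of Cyp4a14 to Cyp4a10 was 0.931 ± 0.133 in fasted controls, 1.36 ± 0.263 in fasted LKO, 1.18 ± 0.316 in refed controls and 1.37 ± 0.149 in refed LKO (SD, n = 4).

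The makeup of the family shifted with genotype. The 10 genes took 0.277 to 0.437% of all counts in fasted controls and 0.680 to 1.19% in fasted LKO. They took 0.300 to 0.422% in refed controls and 0.565 to 0.823% in refed LKO, so the genotypes did not overlap in either state. Of the summed level per kb of the 10 genes, CYP4A made up 81.6 ± 4.76% in fasted controls and 94.5 ± 1.32% in fasted LKO, while CYP4F made up 12.7 ± 3.77% and 3.07 ± 0.634%. In the refed state CYP4A made up 81.3 ± 4.04% in controls and 92.4 ± 1.91% in LKO, and CYP4F 12.4 ± 3.08% and 4.34 ± 0.994% (SD, n = 4). The CYP4F share also depends on the CYP4A level. In summed CPM, CYP4A was at 2841 ± 906 in fasted controls and 8277 ± 2639 in fasted LKO. Summed CYP4F was at 455 ± 42.7 and 286 ± 31.2 CPM. When refed, summed CYP4F ran from 363.5 to 520.6 CPM in controls and from 282.0 to 368.4 CPM in LKO, so the genotypes overlapped.

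**Figure D1:**
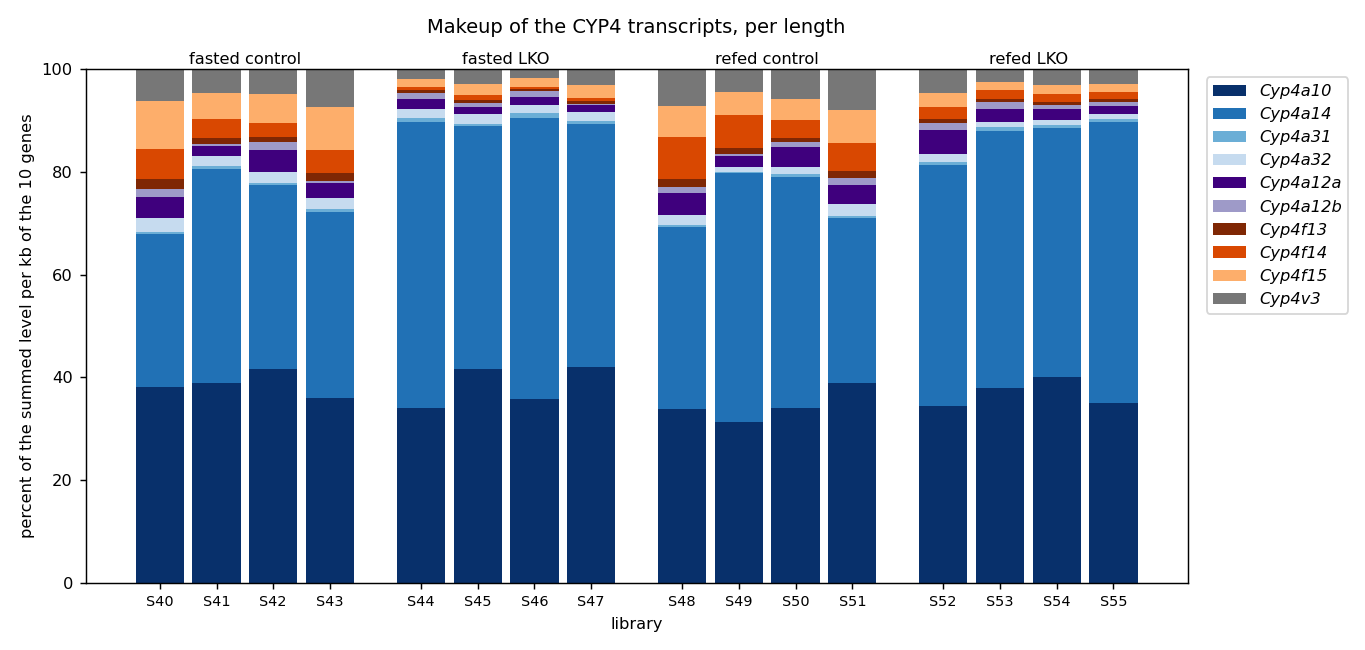
Each bar is 1 library, split by the percent that each CYP4 gene takes of the summed level per kb of the 10 genes. Cyp4a10 and Cyp4a14 fill most of every bar, and the CYP4F part is thinner in the LKO libraries (at most 3.64% fasted and 5.82% refed) than in the control libraries (at least 9.29% fasted and 8.44% refed).

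In the fasted state, 4 CYP4A genes were higher and 2 CYP4F genes lower in LKO than in control livers, while 4 members did not pass the test. Of all 14488 genes, 12.2% were called in this comparison (edgeR's quasi-likelihood test, Benjamini-Hochberg adjusted p under 0.05), 5.75% higher and 6.48% lower. The median log2 fold change of the 10 members was 0.63, beside 0.02 for all genes tested.

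Cyp4a10, a main lauric acid omega-hydroxylase of mouse liver, read 941.6, 1386, 1687 and 858.5 CPM in fasted controls and 2875, 2512, 3823 and 2429 CPM in fasted LKO. Every LKO library lay above every control. The log2 fold change was 1.26 (SE 0.21, edgeR adjusted p = 0.00151), a fold of 2.39. Cyp4a14, the other strongly inducible member, read 910.1, 1832, 1789 and 1069 CPM in controls and 5793, 3531, 7229 and 3380 CPM in LKO. The LKO libraries were split into a higher pair, S44 and S46, and a lower pair, S45 and S47, and both pairs cleared the controls. The difference was 1.83 on the log2 scale (SE 0.31, edgeR adjusted p = 0.00148), a fold of 3.56.

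Cyp4a31, a close copy of Cyp4a10 at a far lower level, read 11.3, 22.1, 21.7 and 13.5 CPM in controls and 70.7, 32.6, 107 and 35.2 CPM in LKO. The same higher pair of LKO libraries, S44 and S46, stood out. Its log2 fold change was 1.84 (SE 0.37, edgeR adjusted p = 0.00402). Cyp4a32, the other close copy, read 47.1, 55.4, 61.5 and 38.4 CPM in controls and 111, 89.8, 123 and 75.5 CPM in LKO, again without overlap. The log2 difference was 0.98 (SE 0.18, edgeR adjusted p = 0.00288). With the counts of Cyp4a10, Cyp4a31 and Cyp4a32 summed as 1 feature, the log2 fold change was 1.26 (edgeR adjusted p = 0.00142). That sum is nearly all Cyp4a10, so it does not show how reads were split between Cyp4a31, Cyp4a32 and Cyp4a10, and their part in the values of Cyp4a31 and Cyp4a32 was not tested.

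The Cyp4a12 pair did not pass the test, and Cyp4a12b had the widest spread of the members in both fasted groups, with coefficients of variation of 69.0% in controls and 75.7% in LKO. Cyp4a12a read 119.8, 72.3, 203 and 78.1 CPM in fasted controls and 194, 92.8, 193 and 93.5 CPM in fasted LKO (log2 fold change 0.28, edgeR adjusted p = 0.658). Cyp4a12b read 43.5, 20.8, 69.8 and 13.3 CPM in controls and 115, 49.3, 140 and 10.3 CPM in LKO (log2 fold change 1.10, 95% interval -0.08 to 2.28, edgeR adjusted p = 0.259). Its highest fasted LKO library, S46, was 13.7 times its lowest, S47, and S47 lay under every fasted control. With both genes summed as 1 feature the log2 fold change was 0.52 (edgeR adjusted p = 0.440). The groups overlapped for both genes, and the interval for Cyp4a12b leaves room for a rise as large as that of Cyp4a14.

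Of the CYP4F genes, Cyp4f14, a leukotriene omega-hydroxylase of mouse liver, read 166.6, 149, 123 and 125 CPM in fasted controls and 62.1, 68.9, 61.1 and 40.2 CPM in fasted LKO. Its log2 fold change was -1.28 (SE 0.21, edgeR adjusted p = 0.00116), a fold of 0.412, with every LKO library under every control. Cyp4f15 read 249.7, 192, 247 and 216 CPM in controls and 134.5, 133, 187 and 156 CPM in LKO. It was lower with no overlap, at a log2 fold change of -0.57 (SE 0.12, edgeR adjusted p = 0.00788). Cyp4f13, their neighbour on chromosome 17, read 77.7 to 98.7 CPM in controls and 60.9 to 82.4 CPM in LKO (log2 fold change -0.22, 95% interval -0.44 to 0.01, edgeR adjusted p = 0.236).

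Cyp4v3, the mouse counterpart of human CYP4V2, a fatty acid hydroxylase best known from the retina, was the steadiest member. It read 276.5, 303, 359 and 313 CPM in fasted controls and 298, 321, 347 and 330 CPM in fasted LKO. The log2 fold change was 0.05, with a 95% interval of -0.16 to 0.26 (edgeR adjusted p = 0.811). The groups overlapped, and the interval does not reach the change of any of the 6 called members.

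**Figure D2:**
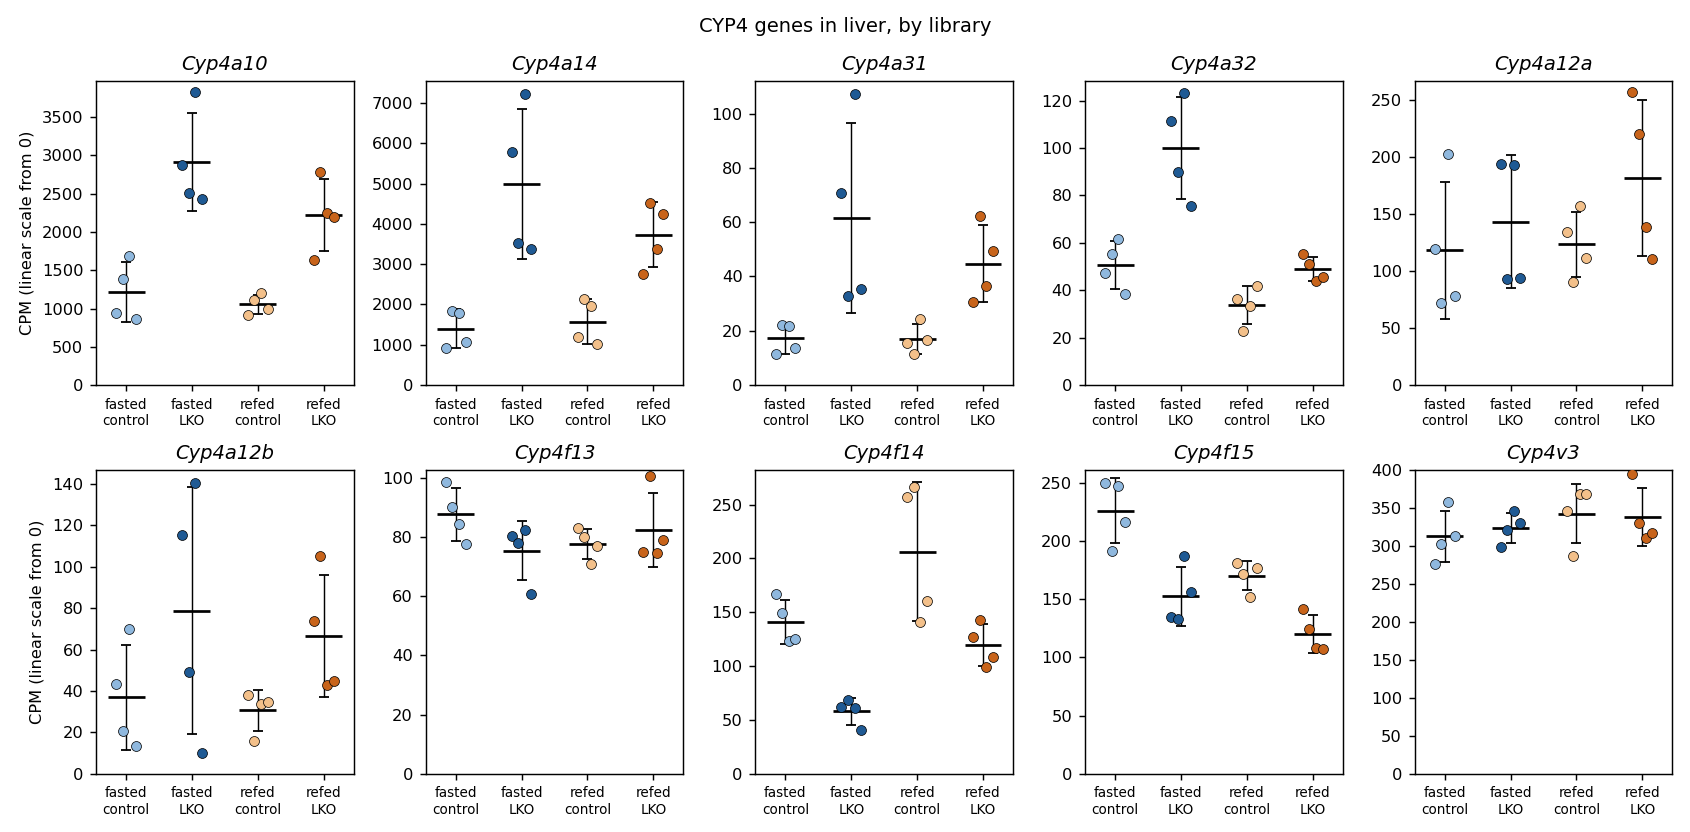
Points are CPM of single libraries on linear axes from 0, bars are group means and error bars are SD (n = 4). In fasted LKO the points of Cyp4a14 reach 7229 CPM and those of Cyp4a31 reach 107 CPM, Cyp4f14 is under 70 CPM in the 4 libraries, and Cyp4v3 is level across groups.

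The 6 fasted calls held in 16 of 16 fits that each left out 1 library. In fasted LKO, S44 and S46 were the 2 highest libraries for each of the 6 CYP4A genes. The same pair stood apart outside the family. Ehhadh, the peroxisomal bifunctional enzyme, was at 4327 CPM in S44 and 4890 in S46 against 1092 in S45 and 1445 in S47, and Acaa1b, a peroxisomal thiolase, at 7452 and 7498 against 3669 and 4146 CPM. Acot1, an acyl-CoA thioesterase, was at 865 and 672 against 284 and 316 CPM, and the retinaldehyde dehydrogenase Aldh1a1 went the other way, at 634 and 646 against 1561 and 1616 CPM. These genes were chosen after their values were seen.

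In the refed state, 3 CYP4A genes were higher and 2 CYP4F genes lower in LKO, where 3.63% of all genes were called, 2.28% higher and 1.35% lower. The median log2 fold change of the members was 0.55, beside -0.01 for all genes tested. Cyp4a10 read 921.5, 1118, 1198 and 993 CPM in refed controls and 1637, 2790, 2253 and 2197 CPM in refed LKO, with no overlap. Its log2 fold change was 1.07 (SE 0.21, edgeR adjusted p = 0.0114), and this call held in 16 of 16 fits without 1 library.

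Cyp4a14 read 1183, 2135, 1951 and 1013 CPM in refed controls and 2768, 4529, 3376 and 4252 CPM in refed LKO, again with no overlap. LKO exceeded control by 1.25 on the log2 scale (SE 0.30, edgeR adjusted p = 0.0323). The call was lost without S48 (adjusted p = 0.103), S51 (0.0673), S53 (0.0893), S54 (0.0575) or S55 (0.0883). Cyp4a31 read 15.3, 11.3, 24.5 and 16.6 CPM in controls and 30.6, 62.3, 36.5 and 49.5 CPM in LKO, at a log2 fold change of 1.40 (SE 0.36, edgeR adjusted p = 0.0433). Every LKO library exceeded every control, but the call was lost in 9 of 16 fits, without S41 (0.0509), S42 (0.0510), S43 (0.0507), S48 (0.113), S49 (0.101), S51 (0.0714), S53 (0.125), S54 (0.0637) or S55 (0.101), and with limma-voom (0.0523).

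Cyp4a32 did not pass the test in the refed state. It read 36.3, 22.8, 33.4 and 41.9 CPM in controls and 55.1, 51.2, 43.8 and 45.5 CPM in LKO (log2 fold change 0.54, 95% interval 0.18 to 0.91, edgeR adjusted p = 0.114). The groups did not overlap. The authors' deposited table lists it under an adjusted p of 0.05 in this comparison. Cyp4a12a read 134, 90.6, 157 and 112 CPM in controls and 257, 221, 139 and 111 CPM in LKO, with overlap (log2 fold change 0.56, edgeR adjusted p = 0.420). Cyp4a12b read 38.1, 15.7, 33.8 and 34.7 CPM in controls and 73.7, 105, 42.8 and 44.6 CPM in LKO (log2 fold change 1.12, 95% interval -0.06 to 2.31, edgeR adjusted p = 0.343). The Cyp4a12b groups did not overlap. In all, 6 members had groups that did not overlap in the refed state, beside 11.7% of all genes, and 6 in the fasted state, beside 16.9%.

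Cyp4f14 read 256.7, 267, 141 and 161 CPM in refed controls and 127, 143, 99.4 and 108.5 CPM in refed LKO. Its log2 fold change was -0.79 (SE 0.20, edgeR adjusted p = 0.0434), and here the groups overlapped, since LKO library S53 lay above control S50. The call was lost without S41 (0.0554), S42 (0.0558), S43 (0.0519), S48 (0.131), S49 (0.112), S52 (0.0672), S53 (0.0554), S54 (0.114) or S55 (0.116), with limma-voom (0.0531) and with only the 2 groups in the fit (0.0766). Cyp4f15 read 181, 172, 152 and 177 CPM in controls and 142, 125, 108 and 107 CPM in LKO, with no overlap. The log2 fold change came to -0.50 (SE 0.13, edgeR adjusted p = 0.0366), and the call was lost without S48 (0.101), S49 (0.0671), S51 (0.0633), S53 (0.0726), S54 (0.101) or S55 (0.111). Cyp4f13 (70.8 to 82.9 CPM in controls, 74.5 to 100.8 in LKO) and Cyp4v3 (286.9 to 369 CPM in controls, 310.4 to 395 in LKO) did not pass the test, at log2 fold changes of 0.08 and -0.02.

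Cyp4a10, Cyp4a14 and Cyp4a31 were called higher in both states, as were 0.828% of all genes, and Cyp4f14 and Cyp4f15 lower in both, as were 0.67%. Whether the genotype effect differed between refed and fasted livers was asked with an interaction term. This term was called for 0 of the 10 members (edgeR adjusted p from 0.370 to 0.993), with 0 members under an unadjusted p of 0.05 and 0 called with DESeq2, while 0.538% of all genes were called, 0.311% higher and 0.228% lower. For Cyp4a14 the genotype effect was 0.58 smaller on the log2 scale after refeeding (interaction -0.58, 95% interval -1.41 to 0.25). For Cyp4f14 the interaction was 0.49 (95% interval -0.08 to 1.06). Both intervals are wide, so the effects in the 2 states are shown neither to differ nor to be alike.

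**Figure D3:**
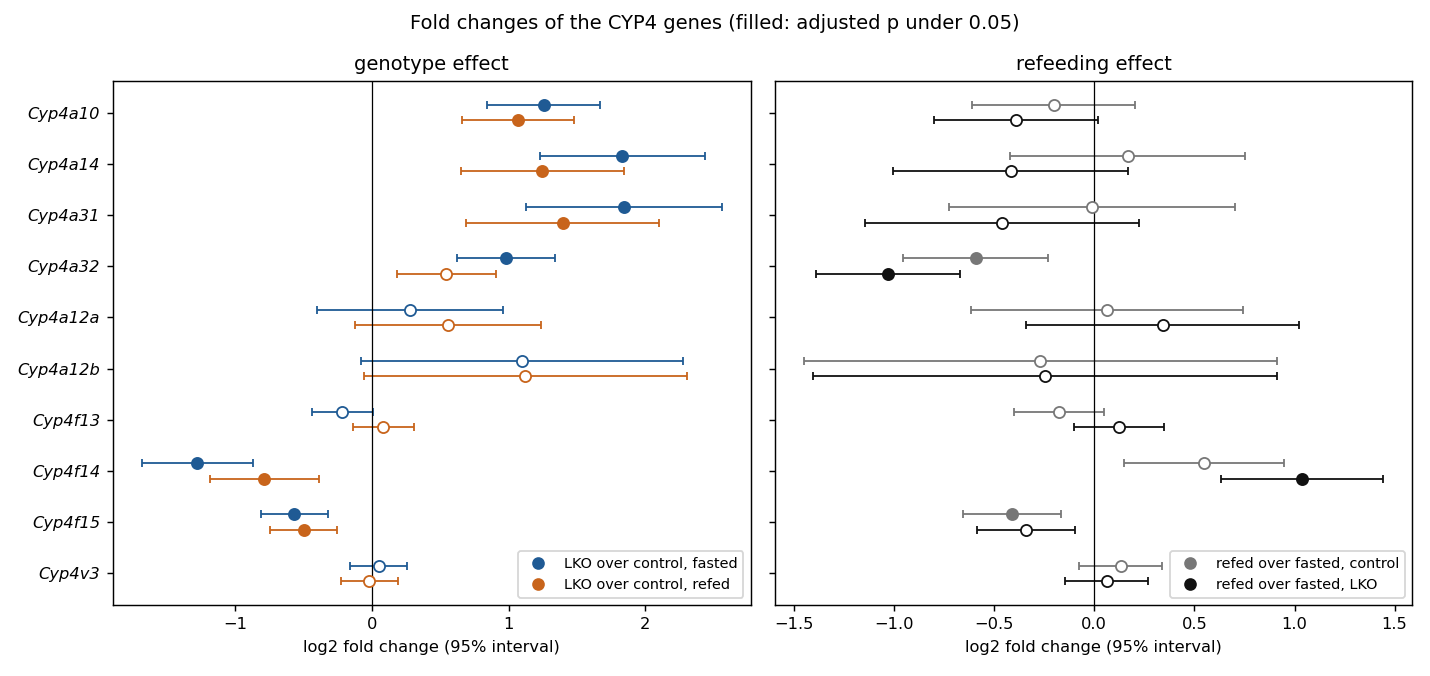
Points are log2 fold changes with 95% intervals, LKO over control on the left and refed over fasted on the right, and filled points have an adjusted p under 0.05. On the left Cyp4a14 (1.83 fasted, 1.25 refed) and Cyp4f14 (-1.28, -0.79) lie on opposite sides of 0, and on the right Cyp4a32 and Cyp4f14 lie farthest from 0 in LKO.

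Refeeding for 6 h was compared with the fast in each genotype. In controls 15.4% of all genes were called, 7.79% higher and 7.65% lower, and 2 of the 10 members were called lower. Groups did not overlap for 1 member (Cyp4f15), beside 20.4% of all genes. Cyp4a32 went from a mean of 50.6 ± 10.1 CPM fasted to 33.6 ± 7.99 CPM refed (SD, n = 4, log2 fold change -0.59, edgeR adjusted p = 0.0388), with overlap through S51. Its call was lost without S40 (0.0673), S41 (0.0871), S42 (0.108), S48 (0.0629), S49 (0.101) or S50 (0.0878), and with only the 2 groups in the fit (0.0581). Cyp4f15 went from 226 ± 27.6 to 170.4 ± 12.8 CPM with no overlap (log2 fold change -0.41, edgeR adjusted p = 0.0353). Its call was lost without S40 (0.109), S42 (0.0891), S43 (0.0588), S48 (0.0564), S49 (0.0624) or S50 (0.109). Cyp4f14 was at 141 ± 20.7 CPM fasted and 206 ± 64.7 CPM refed (log2 fold change 0.55, edgeR adjusted p = 0.0792), and it passed without S50 (0.0374) or S51 (0.0463) and with DESeq2 (0.0495). In this comparison it has an adjusted p of 0.0440 in the authors' deposited table.

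In LKO livers 18.1% of all genes were called after refeeding, 9.28% higher and 8.78% lower, and 2 of the 10 members were called. Groups did not overlap for the same 2, beside 20.6% of all genes. Cyp4a32 was lower, from 99.96 ± 21.4 CPM fasted to 48.9 ± 5.21 CPM refed (SD, n = 4), with a log2 fold change of -1.03 (SE 0.18, edgeR adjusted p = 0.00114) and no overlap. Cyp4f14 was higher, from 58.1 ± 12.4 to 119 ± 19.4 CPM, with a log2 fold change of 1.04 (SE 0.21, edgeR adjusted p = 0.00255) and no overlap. Both calls held in 16 of 16 fits without 1 library. Summed with Cyp4a10 and Cyp4a31, Cyp4a32 no longer gave a call (log2 fold change of the sum -0.41, edgeR adjusted p = 0.192), since Cyp4a10 makes up most of that sum. Cyp4f15 was at a log2 fold change of -0.34 (edgeR adjusted p = 0.0686) and passed without S45 (0.0496) or S52 (0.0399) and when genes under a mean of 5 CPM were dropped (0.0481). Cyp4a10 and Cyp4a14 did not pass, at -0.39 (95% interval -0.80 to 0.02) and -0.42 (95% interval -1.0 to 0.17). The refeeding and genotype comparisons share libraries, so they are not independent of each other.

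Members tracked each other to different degrees over the 16 libraries. These correlations describe log2 CPM and rest in part on the genotype difference. Both genes of a pair are read in the same libraries, and so share each library's depth and scaling factor. Cyp4a10 and Cyp4a14 had Pearson r = 0.95 (Spearman 0.92), and r = 0.84 after each group's mean was removed. Cyp4a12a and Cyp4a12b, which share long identical stretches, had r = 0.83 (Spearman 0.75), and 0.81 with group means removed. Cyp4a14 and Cyp4f14 had r = -0.66 (Spearman -0.67) over all libraries but 0.12 with group means removed, so their opposition lies between groups.

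**Figure D4:**
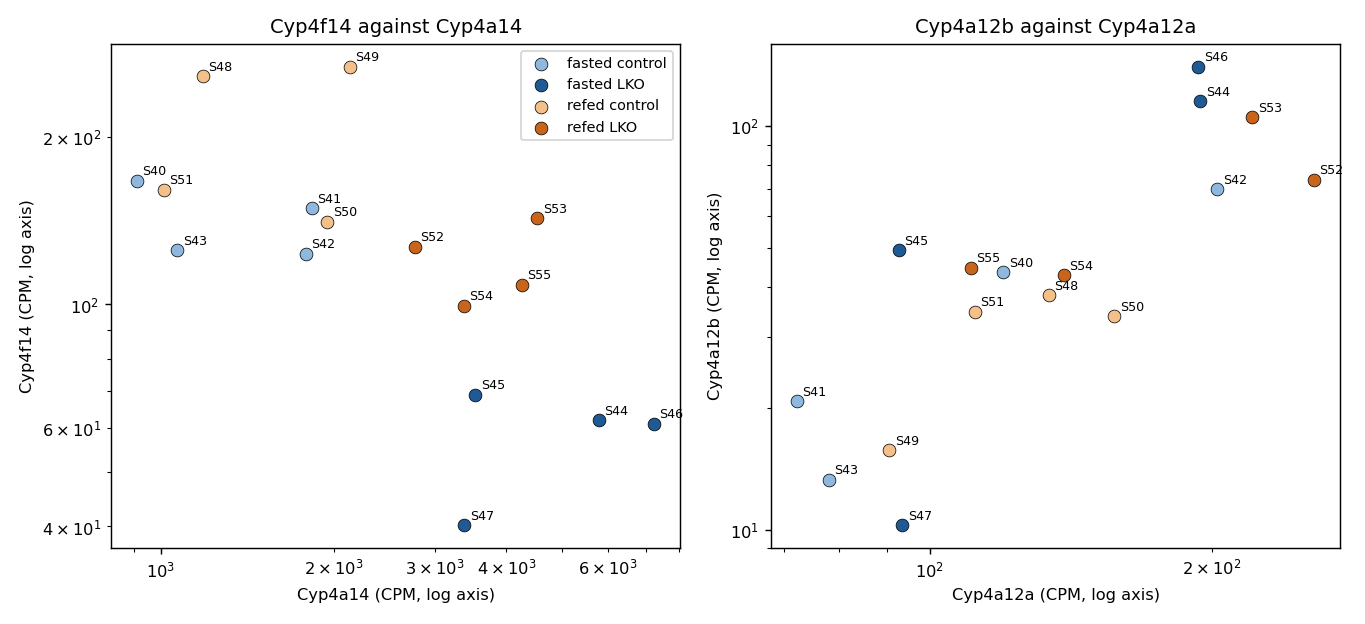
Each point is 1 library, with CPM on log axes. On the left the LKO libraries lie at higher Cyp4a14 and mostly lower Cyp4f14 than the controls, and on the right Cyp4a12b spreads from 10.3 CPM (S47) to 140 CPM (S46) along with Cyp4a12a.

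The 5 genes whose log2 CPM was most like that of Cyp4a14, among 8874 protein-coding genes with a mean of at least 5 CPM, were Retsat (Pearson r = 0.953), Acadl (0.951), Hadhb (0.934), Acadvl (0.929) and Ehhadh (0.925). Acadl, Acadvl and Hadhb encode mitochondrial beta-oxidation enzymes, Ehhadh encodes the peroxisomal bifunctional enzyme, and Retsat encodes retinol saturase. With group means removed their r was 0.65 to 0.82. Among the 5 most like Cyp4f14 were Krtcap2 (0.981), Snd1 (0.957), Slc22a7 (0.927) and Scnn1a (0.927). With group means removed, r was 0.907 for Krtcap2, 0.821 for Snd1, 0.528 for Slc22a7 and 0.730 for Scnn1a. For Cyp4a12a the 5 were Rpp40 (0.851), Crim1 (0.811), Gapdh (0.804), Trim37 (0.795) and Ctr9 (0.753), and with group means removed their r was 0.765 to 0.838.

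The genes around the CYP4 step were described from lists. Of the other Cyp4 genes, 5 of 10 listed were tested, and the list summed to 26.7 to 34.4 CPM in fasted controls and 38.8 to 56.5 CPM in fasted LKO. Of the 5, 2 were called higher in fasted LKO, Cyp4b1 (log2 fold change 0.59, edgeR adjusted p = 0.0232) and Cyp4f17 (0.61, edgeR adjusted p = 0.0432), while 0 were called in the refed state. The median of the 5 was 0.59 fasted and 0.02 refed. Among electron donors of P450s, Cyb5r3, a cytochrome b5 reductase, was called lower in fasted LKO (-0.76) and was the only one of the 4 called, with 0 called refed. Por, the main reductase of microsomal P450s, did not pass in either state.

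Of the 8 alcohol and aldehyde dehydrogenases tested, 2 were higher and 2 lower in fasted LKO (median -0.27). Aldh3a2, the fatty aldehyde dehydrogenase, rose (log2 fold change 1.30, edgeR adjusted p = 0.000332) and Aldh9a1 was higher by 0.28. Adh1, the class I alcohol dehydrogenase, was lower (-1.23, edgeR adjusted p = 0.000309), as was Adh4 (-0.46). In the refed state Aldh3a2 alone of the 8 was called (0.92, edgeR adjusted p = 0.00819; list median -0.03). Of the 16 peroxisomal genes tested, 9 were higher and 0 lower in fasted LKO (median 0.62), and 4 were higher and 0 lower in refed LKO (median 0.31). Ehhadh led in both states (2.97 fasted, edgeR adjusted p = 0.000393, and 2.42 refed, 0.00376), and its 4 fasted LKO libraries ran from 1092 (S45) to 4890 CPM (S46), all above the fasted controls.

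**Figure D5:**
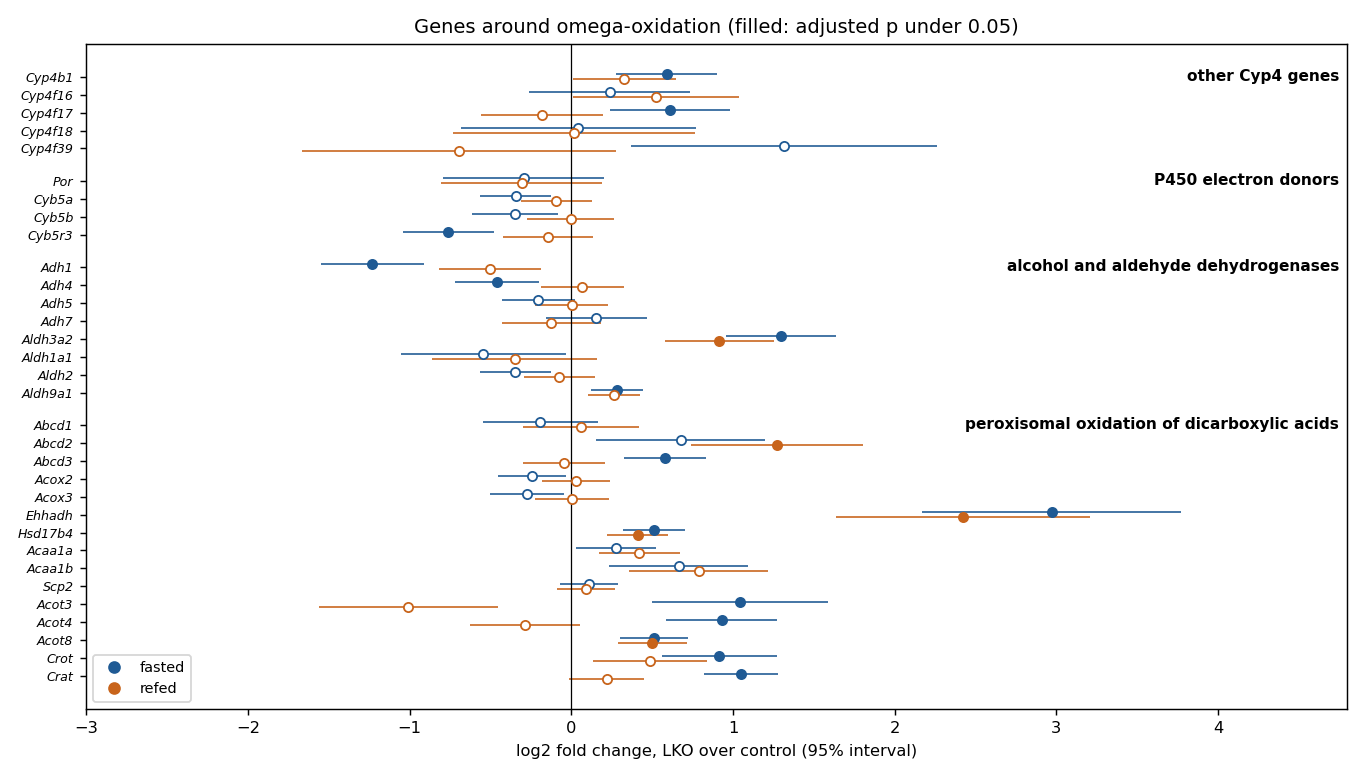
Points are log2 fold changes, LKO over control, with 95% intervals, for most tested genes of 4 lists, and filled points have an adjusted p under 0.05. Ehhadh (2.97 and 2.42) and Aldh3a2 (1.30 and 0.92) are filled in both states, and Adh1 (-1.23) is filled on the lower side when fasted.

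Of 20 PPARA targets outside the CYP4 family, 17 were higher and 0 lower in fasted LKO (median 0.72), and 5 were higher and 0 lower in refed LKO (median 0.37). Of the 7 genes for PPARA, its relatives and its partners, 0 were called in either state, and Ppara itself was at 0.45 (edgeR adjusted p = 0.161) fasted and -0.04 refed. Of 8 other P450s that act on fatty acids, 0 were higher and 3 lower in each state. Cyp2c29 and Cyp2c50, epoxygenases of arachidonic acid, were lower in both (-1.75 and -1.12 fasted, -1.68 and -1.12 refed). The lists for sex-biased expression were read because Cyp4a12a and Cyp4a12b are male-biased. Of 11 male-biased genes tested, 1 was higher (Cspg5) and 0 lower in fasted LKO (median 0.28). Of 17 female-biased genes listed, 7 were tested, with 0 higher and 1 lower (Hao2, list median -0.26). In refed LKO the male-biased list again gave 1 higher (Cspg5) and 0 lower (median 0.24). The female-biased list gave 0 higher and 2 lower (Cyp2b13 and Hao2, list median -1.37), and 4 of the 7 had groups without overlap. Summed, this list ran from 182 to 317 CPM in refed controls and from 38.5 to 128 CPM in refed LKO. In the fasted state its sums overlapped, at 104 to 306 CPM in controls and 23.9 to 428 CPM in LKO. Of 9 genes of growth hormone signalling, which sets sex-biased expression in liver, 1 was called, Ghr, lower in fasted LKO (-0.59), and 0 in refed LKO.

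Markers of liver zones and of other cells were called only in part between genotypes, though most zone markers had estimates below 0. Of 8 pericentral markers, 3 were lower and 1 higher in fasted LKO (median log2 fold change -0.74, 1 estimate above 0). Of 8 periportal markers, 1 was lower and 1 higher (median -0.69, 2 estimates above 0). In refed LKO, 2 pericentral markers were lower and 0 higher (median -0.34, 0 estimates above 0). For periportal markers 1 was higher and 0 lower (median -0.59, 2 estimates above 0). Of the 5 genes of the adipocyte list, Cfd and Car3 passed the filter. The list summed to 1985 to 3444 CPM in fasted controls against 147 to 1167 CPM in fasted LKO. In the refed state it summed to 3888 to 5376 CPM in controls against 1511 to 2409 CPM in LKO. Of the 2 tested, 2 were called lower in fasted LKO and 0 in refed LKO. Lep was at 0 in every group but fasted control. Adipoq was also at 0 in refed controls, where the sum was highest, so the sum is not read as a measure of adipocytes. B and plasma cell markers summed to 2.78 to 6.50 CPM in fasted controls against 11.7 to 32.5 CPM in fasted LKO, and to 3.22 to 4.94 against 15.5 to 36.8 CPM when refed, and Jchain was the 1 of 3 tested that was called. For macrophages, neutrophils, T and NK cells and cholangiocytes 0 markers were called between genotypes, and for stellate cells (Dcn higher, fasted), endothelial cells (Clec4g higher, refed) and red blood cells (Alas2 lower, fasted) 1 each. The part of these markers in the CYP4 results was not tested.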

How the data were processed

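RNA from livers was poly-A selected and made into libraries with random hexamers and dUTP, per the labels' protocols. HISAT2 2.0.5 and mm39 are named in the submitters' processing notes; the counting tool, its use of strand and the annotation are not given in the sources used here. The authors deposited 4 tables of raw counts per gene, joined on gene identifier (0 counts differed between tables, and 3148 genes absent from the tables of a library were set to 0 there). The authors deposited log2 fold changes and adjusted p-values too, used only where named. Gene lengths are the authors' deposited values. The group headings of the tables gave each library its group. Another 64 per-library columns were not used.

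Counts were fitted in R 4.3.3 with edgeR 4.0.16 (filterByExpr, TMM, glmQLFit with 4 groups over 16 libraries, glmQLFTest), and a gene was called at a Benjamini-Hochberg adjusted p under 0.05 over 14488 genes. The SE is the log2 fold change divided by the square root of F, and intervals are 1.96 SE. Alternatives used DESeq2 1.42.0, limma 3.58.1 (voom), other scalings and filters, summed close copies and leaving out each library. The fit was also run on simulated data, with changes set in fasted LKO only and the same spread for every gene. That run covers the fasted genotype comparison only and not the wider spread of some members. Named genes were the members, Cpt1a, fixed lists and the 5 genes most like 3 of the members. Some genes that the lists or the likeness rule name are not reported here. Members and lists were chosen with earlier results of these data known.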

Additional observations from a re-analysis of the deposited data

How the results depend on the processing

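No paired analysis was possible because the count columns carry no replicate numbers. Of 1175 single-gene values under alternative settings, 1094 kept their direction and their side of the threshold, 45 lost a call, 6 gained one and 30 changed sign, the last all among uncalled estimates. In the refed genotype comparison limma-voom called 3 members. In the refeeding comparison of controls, 1 member was called with only the 2 groups in the fit and 1 with close copies summed. In that of LKO, 1 was called with close copies summed. Summing removes Cyp4a31, Cyp4a32 and Cyp4a12b as separate genes, so Cyp4a32 could not be called there, and these lower counts are not lost calls. Leaving out each library gave 6 to 6 members called in the fasted genotype comparison, 1 to 5 in the refed one, 0 to 3 for refeeding in controls, 2 to 3 in LKO and 0 to 0 for the interaction. Without division by length, the ratio of Cyp4a14 to Cyp4a10 was 1.15 in fasted controls, 1.71 in fasted LKO and 1.68 in refed LKO.

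Sign changes, as log2 fold changes, came with limma-voom for Cyp4a31 in control refeeding (0.024) and Cyp4a12b in LKO refeeding (0.20), and with close copies summed for Cyp4a12a in control refeeding (-0.0090). The others came with 1 library left out. The ranges over those fits were, for genotype, -0.0056 to 0.11 (Cyp4v3, fasted), -0.029 to 0.13 (Cyp4f13, refed) and -0.10 to 0.020 (Cyp4v3, refed). For control refeeding they were -0.018 to 0.33 (Cyp4a14), -0.25 to 0.14 (Cyp4a31), -0.11 to 0.45 (Cyp4a12a) and -0.55 to 0.23 (Cyp4a12b), and for LKO refeeding -0.61 to 0.18 (Cyp4a12b) and -0.019 to 0.10 (Cyp4v3). For the interaction they were -0.10 to 0.46 (Cyp4a12a), -0.47 to 0.45 (Cyp4a12b) and -0.021 to 0.18 (Cyp4f15). The cause was not tested.

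Over all genes, calls in the fasted genotype comparison ran from 1048 (without S44) to 2140 (DESeq2) around 1772, in the refed one from 197 (without S48) to 924 (DESeq2) around 526, for refeeding in controls from 1220 (without S40) to 2612 around 2238, and for the interaction from 8 (without S48) to 467 (DESeq2) around 78. The depth of 14721601 to 24618230 counts gave each member at least 165 counts in every library.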
